A study of Mus musculus with 85 samples.

Results

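The miR-181 family in the mouse heart was followed through its 4 mature 5p miRNAs, mmu-miR-181a-5p, mmu-miR-181b-5p, mmu-miR-181c-5p and mmu-miR-181d-5p, which were taken by name from the 1977 mature miRNAs listed, 548 of which had a count in any heart. The 85 hearts, each given 1 small RNA library, were from female animals of the HMDP (hybrid mouse diversity panel), which is made up of inbred strains. The study's data listing describes these hearts as coming from 85 strains. All animals were fed chow during the initial 8 weeks and HF/HS, a diet rich in fat and sucrose, during the following 8 weeks, and their age is given as 16 weeks. No group on another diet is among these libraries. The labels put all 85 libraries in 1 group and do not give the strain of a heart, so strains, animals and libraries cannot be told apart, and the spread between libraries holds all of them together with technical differences.

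MicroRNAs guide the silencing machinery to messenger RNAs, mostly through the seed near their 5′ end, and miRNAs with the same seed are grouped as a family because they can recognize many of the same targets. The miR-181 family is best known from lymphocyte development and from blood vessels, where miR-181b acts on inflammatory signaling in endothelial cells. In heart muscle, miR-181c has been found inside mitochondria, where it acts on the transcript of mt-Co1, a subunit of respiratory complex IV that is encoded by the mitochondrial genome.

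The mature sequences are shown first because the members differ in only a few bases outside the seed, which bears on how well short reads separate them. They are given 5′ to 3′ from RefSeq (GRCm38.p6), with the seed (bases 2 to 8) in capitals.
miR-181a-5p: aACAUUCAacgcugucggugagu
miR-181b-5p: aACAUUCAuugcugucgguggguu
miR-181c-5p: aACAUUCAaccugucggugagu
miR-181d-5p: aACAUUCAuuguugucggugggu
All 4 shared the seed ACAUUCA, and no other mature sequence in the RefSeq table had it. Counted from the 5′ end, miR-181a-5p and miR-181b-5p differed at A9U, C10U and A21G and by an added base at the 3′ end of miR-181b-5p. The sequences of miR-181b-5p and miR-181d-5p differed at C12U and by that same 3′ base, whereas miR-181a-5p and miR-181c-5p were 1 edit apart, because miR-181c-5p lacks a base shortly after the seed. At lengths of 22 to 24 bases, counts of the members could be set side by side without a correction for length.

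The family lies at 3 places in the genome, each with a pair of precursors on the same strand. On chromosome 1, Mir181a-1 (ENSMUSG00000065565.1, chr1:137966455-137966541, plus strand) and Mir181b-1 (ENSMUSG00000065458.1, chr1:137966639-137966718) are 97 bases apart, within an intron of Gm4258 and within an exon of the lincRNA A430106G13Rik. On chromosome 2, Mir181a-2 (ENSMUSG00000065423.1, chr2:38852735-38852810, plus strand) and Mir181b-2 (ENSMUSG00000065578.1, chr2:38853830-38853918) are 1019 bases apart, opposite an intron of Nr6a1, which encodes a nuclear receptor. On chromosome 8, Mir181c (ENSMUSG00000065483.2, chr8:84178873-84178961, minus strand) and Mir181d (ENSMUSG00000076338.1, chr8:84178716-84178787) are 85 bases apart in an intron of Nanos3. The annotation is GENCODE M21 on GRCm38. Thus miR-181a-5p and miR-181b-5p each have a pair of source genes and miR-181c-5p and miR-181d-5p have 1 each. How reads that match both source genes were counted is not given in the sources used here, which limits any comparison of the first pair of members with the second.

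The libraries were shallow, with 1457 to 30202 counts (median 12248) and 95 to 213 miRNAs with a count. In the median library, 1 count was worth 81.6 CPM, which stands for counts per 1000000 counts of the library. A member with no count there could still have had up to 245 CPM, the worth of 3 counts, and this floor ran from 99.3 to 2059 CPM over the libraries. Cardiac muscle was represented by all 4 cardiomyocyte markers examined (miR-1a-3p, miR-133a-3p, miR-208a-3p and miR-499-5p), each with a count in all 85 libraries. The libraries fell into 2 sets along the first principal component of the abundant miRNAs (75% of the variance), computed without any miR-181 row. Set A held 58 libraries and set B 27, in runs of library number (set B: 1 to 10, 15 to 18, 20 to 21 and 49 to 59). These sets were defined from the data and are not conditions of the study, and no test was made between them.

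Together, the 4 members made up 575 of 1142199 counts, or 0.0503% (95% Wilson interval 0.0464% to 0.0546%, covering counting error only). A library held 0 to 18 of these counts, with a median of 7, and the mean level was 532 ± 334 CPM (SD, n = 85). All 4 members were seen together in 12 libraries, and 2 libraries, numbers 6 and 29, held none of them. Their totals of 8201 and 10542 counts were below the median but well above the smallest library.

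The most abundant member was mmu-miR-181a-5p, with 334 counts (rank 99 of the 548 miRNAs with a count) and at least 1 count in 79 of 85 libraries. Its counts ran from 0 to 13 with a median of 4 and quartiles of 2 and 5, and its level was 308 ± 208 CPM (SD, n = 85), with a median of 288. Most hearts therefore carried only a handful of reads of even the leading member. The highest count, 13, was in library 65, which was also the deepest with 30202 counts, whereas the highest level, 1006 CPM, was in library 21 with 7 counts of 6957. It had no count in libraries 6, 14, 22, 25, 29 and 30, and 4.04 empty libraries would be expected if every library held the same share.

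The other chromosome 1 and 2 product, mmu-miR-181b-5p, had 146 counts (rank 128) and was seen in 63 libraries. Its counts ran from 0 to 10 with a median of 1, and its level was 139 ± 173 CPM (SD, n = 85). The SD above the mean reflects a few high libraries beside many with 0 or 1 count. Library 18 stood highest on both scales, with 10 of its 8553 counts (1169 CPM) where an equal share would give 1.09. By counts, the next were library 56 with 7 and libraries 53, 58, 59 and 82 with 6 each, and all of these except library 82 belonged to set B. By CPM, the next was library 14 of set A, the smallest library, at 686 CPM from 1 count of 1457, ahead of library 56 at 604 CPM. Empty libraries numbered 22, against 18.4 expected at an equal share.

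The chromosome 8 pair lay close to the limit of detection. mmu-miR-181d-5p had 61 counts (rank 161) in 40 libraries, from 0 to 6 with a median of 0, and a level of 54.98 ± 85.5 CPM (SD, n = 85). Its highest counts were 6 in library 58, 4 in libraries 61 and 66, and 3 in library 21. mmu-miR-181c-5p, the member linked to mitochondria, was the lowest, with 34 counts (rank 186) in 27 libraries, from 0 to 4, and a level of 29.7 ± 55.2 CPM (SD, n = 85). It exceeded 3 counts in library 11 alone, where 4 counts stood against 0.352 expected, and its 58 empty libraries were nearly the 57.6 expected from counting at an equal share. For miR-181d-5p, 45 libraries were empty and 42.96 were expected. The absence of a count of either miRNA from a heart was thus not distinguishable, at this depth, from its average share.

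**Figure D1:**
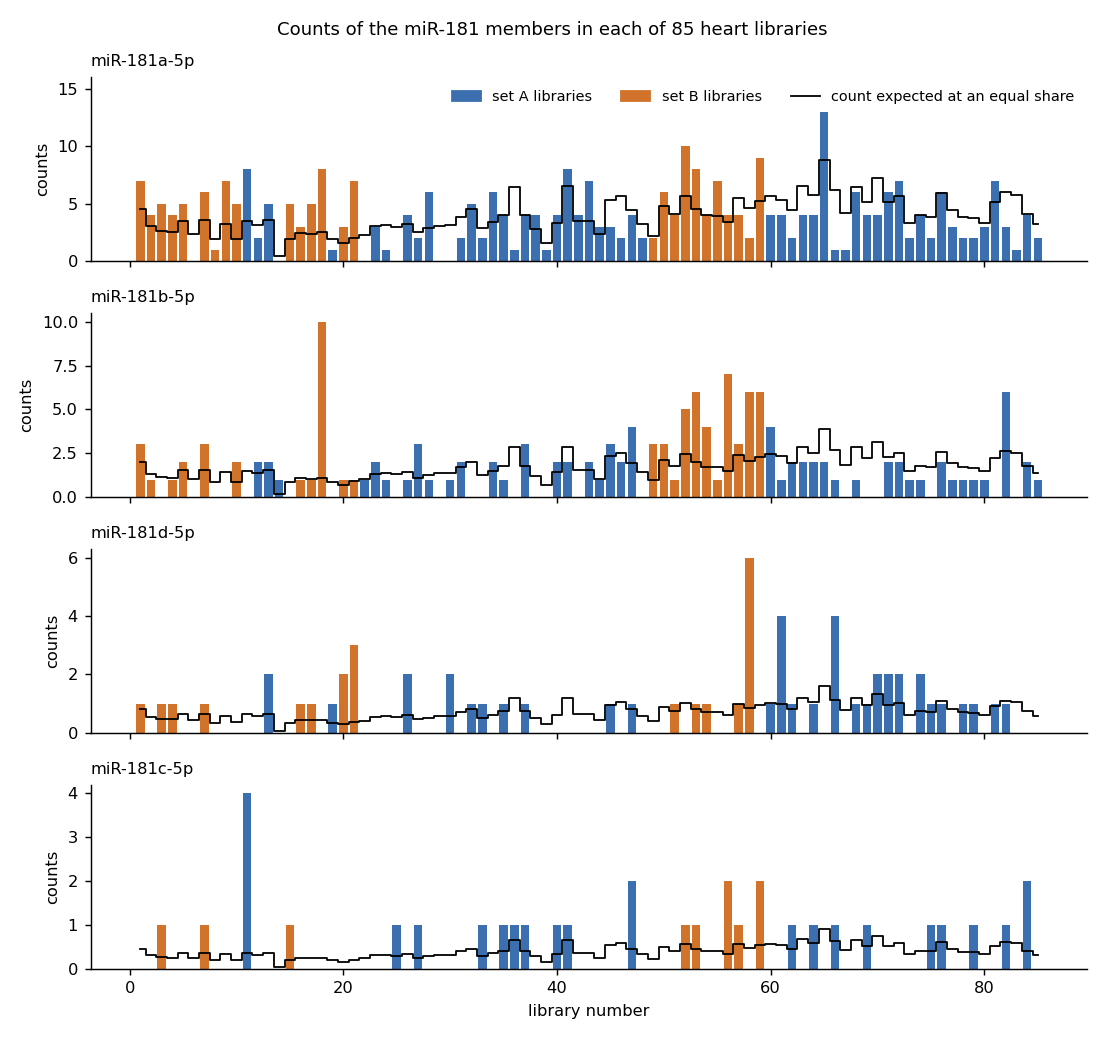
Counts (vertical axis) of the 4 miR-181 members in each heart library in order of library number (horizontal axis), with bars colored by set of libraries and a black line for the count expected if each library held the member's average share. miR-181a-5p was present in 79 of 85 libraries, whereas miR-181c-5p was present in 27, and library 18 stands out for miR-181b-5p with 10 counts.

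**Figure D2:**
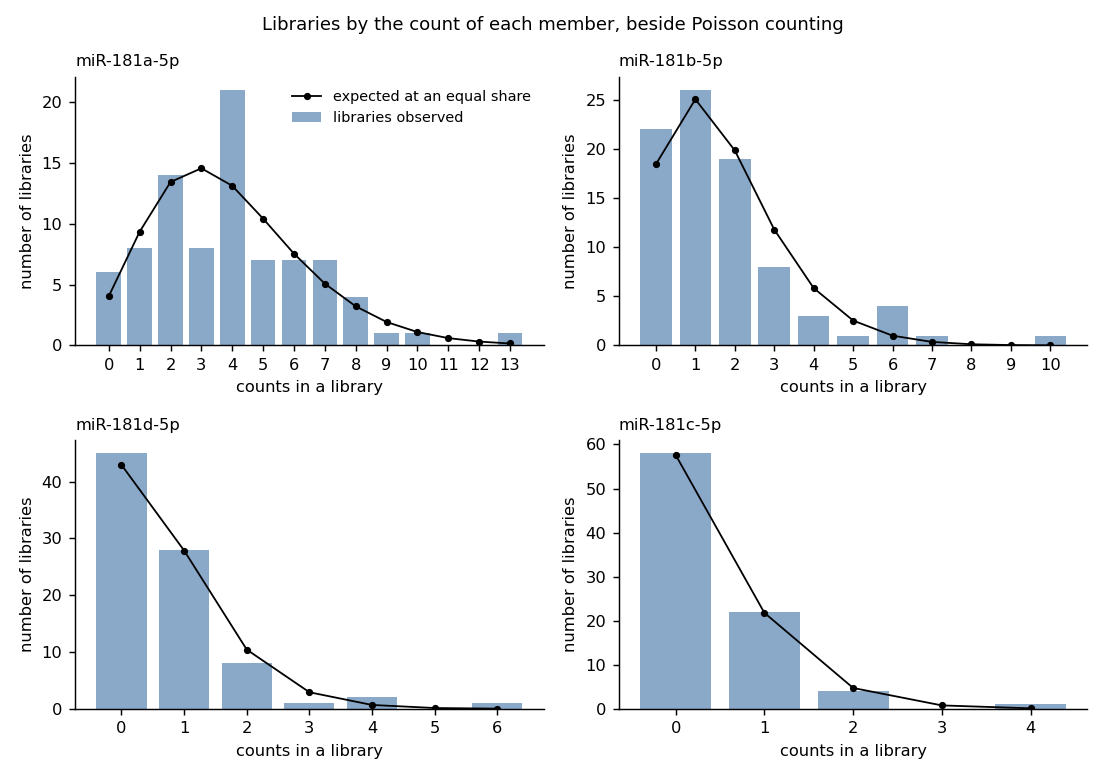
Number of libraries (vertical axis) at each count (horizontal axis) for the 4 members (bars), beside the number expected from Poisson counting at an equal share of each library's total (points and line). The bars of miR-181c-5p follow the line except for 1 library at 4 counts, whereas miR-181b-5p has 4 libraries at 6 counts where 0.992 were expected.

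Within the family, miR-181a-5p took 58.1% of the counts (95% Wilson interval 54.01% to 62.1%), miR-181b-5p 25.4% (22.01% to 29.1%), miR-181d-5p 10.6% (8.35% to 13.4%) and miR-181c-5p 5.91% (4.26% to 8.15%). Neighbors in this order were compared within libraries by 2-sided paired permutation tests with 100000 random sign flips, adjusted over the 3 pairs. miR-181a-5p exceeded miR-181b-5p by 2.21 ± 2.55 counts per library (SD, n = 85; higher in 63 libraries, lower in 9, permutation p = 1e-05, the smallest these resamples can give, adjusted p = 3e-05). miR-181b-5p exceeded miR-181d-5p by 1.0 ± 2.05 counts (higher in 44, lower in 15, permutation adjusted p = 3e-05). Both steps also passed within each set. The second step, like the family percentages, sets a member with a pair of source genes beside one with 1. It is therefore limited by the unknown counting of reads that match both genes. The last step was smaller: miR-181d-5p exceeded miR-181c-5p by 0.318 ± 1.30 counts (higher in 25, equal in 48, lower in 12, permutation adjusted p = 0.0312). It did not pass without library 58 (0.25 counts, permutation adjusted p = 0.0600), within set A (0.276, permutation adjusted p = 0.105) or within set B (0.407, permutation adjusted p = 0.236), so the call for this step rested on library 58, while the direction was the same in each of these comparisons.

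The ratio of miR-181b-5p to miR-181a-5p does not depend on the library total or on any normalization. miR-181b-5p made up 30.4% of the counts of the pair (95% Wilson interval 26.5% to 34.7%), and this share did not vary detectably over the 82 libraries with a count of either (chi-square per degree of freedom 1.06, p = 0.327). It was 27.4% (22.4% to 32.9%) in set A and 34.5% (28.3% to 41.2%) in set B, with overlapping intervals, and did not vary detectably within set A (0.944, p = 0.594) or set B (1.30, p = 0.146). The medians of 4 and 1 counts per library limit how small a shift in this ratio could be detected.

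The 3p arms separate the source genes, since the 3p sequences differ between precursors where the 5p sequences do not. Their sequences are given with bases 2 to 8 in capitals.
miR-181a-1-3p: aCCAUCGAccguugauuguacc
miR-181a-2-3p: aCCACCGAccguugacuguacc
miR-181b-1-3p: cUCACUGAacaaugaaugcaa
miR-181b-2-3p: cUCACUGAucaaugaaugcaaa
miR-181c-3p: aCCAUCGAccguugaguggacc
miR-181d-3p: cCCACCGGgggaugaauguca
The miR-181b arms share one seed, and miR-181a-1-3p shares its seed with miR-181c-3p. For the miR-181a genes, both precursors are shown in full from RefSeq (GRCm38.p6, plus strand), with the 5p and 3p arms in capitals, because an identical 5p arm lies beside a 3p arm that tells the genes apart.
Mir181a-1: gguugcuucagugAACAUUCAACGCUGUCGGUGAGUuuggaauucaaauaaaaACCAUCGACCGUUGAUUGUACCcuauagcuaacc
Mir181a-2: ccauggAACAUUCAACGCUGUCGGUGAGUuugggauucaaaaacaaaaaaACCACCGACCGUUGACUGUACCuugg
miR-181a-1-3p had 39 counts and miR-181a-2-3p had 35, so 52.7% of the miR-181a 3p counts (95% Wilson interval 41.5% to 63.7%) came from the chromosome 1 gene. Both miR-181a genes were thus represented in the heart, with 3p counts that could not be told apart at this depth. Like 3p counts do not give the shares of the genes in miR-181a-5p, because the part of a precursor's reads that is 3p may differ between them. The remaining rows held 23 counts of miR-181c-3p, 4 of miR-181b-2-3p, 2 of miR-181b-1-3p and 1 of miR-181d-3p.

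The share of the 3p arm spanned a wide range over the members. The 3p arm made up 40.4% of the miR-181c counts (23 of 57, 95% Wilson interval 28.6% to 53.3%), 18.1% for miR-181a (74 of 408, 14.7% to 22.2%), 3.95% for miR-181b (6 of 152, 1.82% to 8.34%) and 1.61% for miR-181d (1 of 62, 0.285% to 8.59%). The interval of miR-181c lay above those of the other members, and that of miR-181a above those of miR-181b and miR-181d. For miR-181a and miR-181b, a 5p read matches a pair of source genes and a 3p read only 1. Their 3p shares therefore also depend on how reads with several matches were counted, which is not given, and the intervals do not cover this. The percentage for miR-181c was close in both sets, at 40% in set A and 41.2% in set B, as was that for miR-181a, at 18.1% and 18.2%. Counted over both arms, miR-181c (57 counts) and miR-181d (62 counts) were therefore nearly level. Their 5p rows held 34 and 61 counts, a difference whose call rested on library 58.

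Variation beyond counting noise was examined with a chi-square test of an equal share of each library's total, for every miRNA with at least 85 counts. Of 146 miRNAs tested, 125 (85.6%) varied at an adjusted p under 0.05, and both members that reached the minimum were among them, a result close to that background. For miR-181a-5p, chi-square per degree of freedom was 1.57 (adjusted p = 0.000906), where counting alone gives 1 with an SD of 0.154. For miR-181b-5p it was 2.25 (adjusted p = 9.01e-10). The median over the 146 miRNAs was 2.66, and over the 79 with at least 100 and under 1000 counts it was 1.79, with 63 called. The members thus stood on either side of the median for miRNAs of like abundance.

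On a scale that allows for depth, the between-library coefficient of variation (CV) left after counting noise was estimated with a negative binomial model. It was 35.7% for miR-181a-5p (95% profile-likelihood interval 16.3% to 53.2%) and 66.8% for miR-181b-5p (43.03% to 92.5%), and its median over these 79 miRNAs was 41.8%. The intervals of the members overlapped, so a greater variation of miR-181b-5p was not shown. miR-181d-5p and miR-181c-5p were below the minimum and were not tested. Their chi-square per degree of freedom was 1.499 and 1.23, and their CV was 67.5% (14.7% to 112%) and 56.5% (0% to 127%), so that for miR-181c-5p the data allowed anything from no variation to a large one.

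The call for miR-181a-5p depended on the scaling. With TMM library sizes, computed over all 548 miRNAs with a count, chi-square per degree of freedom was 1.19 (adjusted p = 0.138). With the 5 most abundant miRNAs left out of the total it was 1.22 (adjusted p = 0.0987). For miR-181b-5p the call held on both scales, at 1.69 (adjusted p = 0.000135) and 1.81 (adjusted p = 1.28e-05). The 5 miRNAs left out (miR-1b-5p, miR-1a-3p, miR-126a-3p, miR-133a-3p and let-7f-5p) held 53.7% of all counts, 55.8% in set A and 48.04% in set B, so they set much of the total that every other miRNA is measured against.

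Within the sets, values moved in both directions. For miR-181a-5p, chi-square per degree of freedom was 1.24 in set A (adjusted p = 0.143; 65.7% of the miRNAs tested there varied) and 1.11 in set B (adjusted p = 0.40; 56.8% varied). For miR-181b-5p it was 1.11 in set A (adjusted p = 0.340) but 2.35 in set B (adjusted p = 0.000317). The latter value came mostly from library 18, without which it was 1.24 (adjusted p = 0.288). Over all libraries, miR-181b-5p still varied without library 18 (1.49, adjusted p = 0.00348, CV 51.6%), and miR-181a-5p without library 21 (1.46, adjusted p = 0.00483). The chromosome 8 pair, which was not tested, had values of 1.42 in set A and 0.898 in set B for miR-181c-5p, and of 1.06 and 2.11 for miR-181d-5p, against 1.23 and 1.499 over all libraries. Over all libraries, leaving out library 11 took miR-181c-5p to 0.885, and leaving out library 58 took miR-181d-5p to 1.24.

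**Figure D3:**
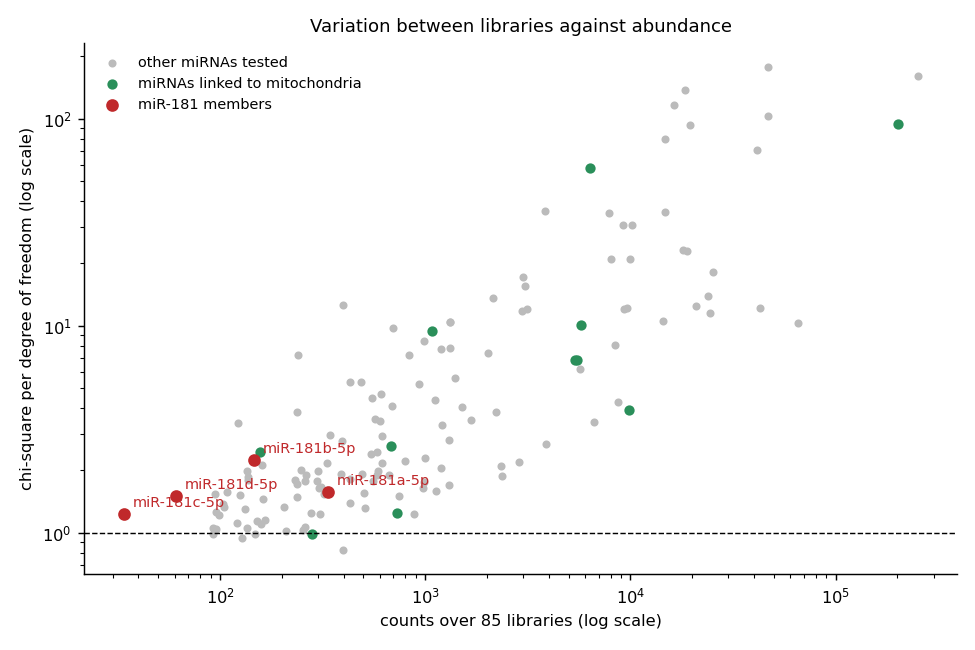
Chi-square per degree of freedom between libraries (vertical axis, log scale) against the counts of each miRNA over 85 libraries (horizontal axis, log scale), for the 146 miRNAs tested and the 4 miR-181 members, with miRNAs linked to mitochondria in green. The dashed line marks 1, the value from counting alone. miR-181a-5p (1.57) and miR-181b-5p (2.25) lie among miRNAs of like abundance, and miR-181c-5p (1.23) and miR-181d-5p (1.499) were under the minimum for the test.

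The family as a whole was 0.0405% of the counts in set A (95% Wilson interval 0.0364% to 0.0451%) and 0.0769% in set B (0.0677% to 0.0873%), with levels of 412 ± 205 CPM (SD, n = 58) and 789.5 ± 409 CPM (SD, n = 27). Pooled over libraries, miR-181a-5p had 239 pooled CPM in set A and 438 in set B, a ratio of 1.83, and miR-181b-5p had 89.9 and 230, a ratio of 2.56. These intervals and ratios cover counting error only and leave out the spread between libraries, and the difference between the sets was not tested. The ratio was 1.42 for miR-181d-5p (47.97 and 68.1 pooled CPM) and 1.13 for miR-181c-5p (28.8 and 32.4). Among the 146 miRNAs tested for variation, the median ratio was 1.49, 95 were above 1, 56 were above miR-181a-5p and 28 above miR-181b-5p. On the TMM scale, with sizes computed over all 548 miRNAs with a count, the median ratio was 1.06. The members stood there at 1.30 (miR-181a-5p), 1.81 (miR-181b-5p), 1.004 (miR-181d-5p) and 0.797 (miR-181c-5p), so miR-181c-5p was higher in set B on the total scale and lower on the TMM scale.

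**Figure D4:**
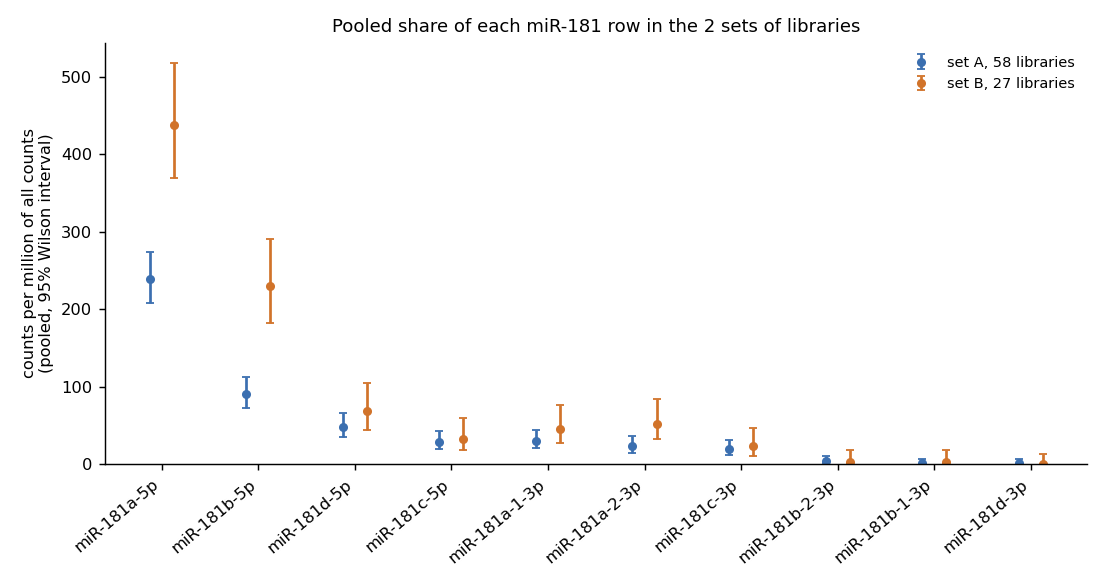
CPM of all counts, pooled over the 58 libraries of set A and the 27 of set B (vertical axis), for the 4 miR-181 members and the 6 3p rows (horizontal axis), with points for the pooled value and bars for its 95% Wilson interval, which covers counting error only and not the spread between libraries. The points of the sets are farthest apart for miR-181a-5p (239 and 438) and miR-181b-5p (89.9 and 230).

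Markers of other cell types also stood at different levels in the sets, and their part in the levels of the members was not tested. Only the miR-181 rows were left out when the sets were defined, so abundant markers helped to define them. A difference of such a marker between the sets is therefore partly built in. In whole hearts, fewer cells of a type and less RNA per cell cannot be told apart. The summed leukocyte markers (5 of 5 with counts) took 0.745% to 4.24% of a library in set A and 0.406% to 1.07% in set B, but not all leaned the same way: miR-142a-3p had 16870 and 2384 pooled CPM and miR-150-5p 303 and 1446. Endothelial markers (2 of 2) averaged 6.58% ± 0.637 in set A and 5.70% ± 0.744 in set B (ranges 5.27% to 8.504% and 3.73% to 7.12%), and cardiomyocyte markers 23.3% ± 1.89 and 21.2% ± 1.69 (18.5% to 29.2% and 17.6% to 24.2%). Within the cardiomyocyte list, the pooled CPM of sets A and B was 193000 and 134100 for miR-1a-3p and 8847 and 1625 for miR-208a-3p, whereas it was 28930 and 74330 for miR-133a-3p. Fibroblast markers (2 of 2) averaged 0.754% in set A and 1.22% in set B, but nearly all of this was miR-199a-3p (9607 counts), since miR-214-3p had 6 counts. Smooth muscle markers (2 of 2) averaged 4.05% and 4.06%, and erythroid markers (3 of 3) 0.416% and 0.397%. These sums also held members that leaned opposite ways, with pooled CPM in sets A and B of 1643 and 5241 for miR-145a-5p beside 38220 and 35720 for the other smooth muscle marker miR-143-3p, and of 499 and 45.4 for miR-144-3p beside 871 and 1933 for miR-486a-5p, both erythroid. The liver marker miR-122-5p averaged 0.0220% and 0.0795%, and of the neuron markers miR-9-5p averaged 0.0227% and 0.0343% while miR-124-3p had no count. These marker levels are read against the median ratio of pooled CPM in set B to set A, which was 1.49 over the 146 miRNAs tested for variation.

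The labels tell the libraries apart by a leading number, whose meaning is not stated, and a library number, which rise together, so a trend over one cannot be told apart from a trend over the other. A slope over library number was estimated for each miRNA by the quasi-likelihood test of edgeR. The filter on low counts (filterByExpr) kept 51 miRNAs, of which 43 (84.3%) had a trend at an adjusted p under 0.05, and none of the 4 members, so the members were read from a fit without a filter, in which 99 of 548 miRNAs (18.1%) had a trend and 49 (8.94%) a falling one. In that fit 0 of the 4 members were called, and 0 had an unadjusted p under 0.05, also with the Wald test of DESeq2. For miR-181a-5p the slope was -0.06 (log2 CPM per 10 libraries, edgeR adjusted p = 0.306), and for miR-181d-5p it was 0.06 (edgeR adjusted p = 0.678). With TMM within the sets, the slope of miR-181a-5p was -0.02 in set A (edgeR adjusted p = 0.861) and -0.07 in set B (edgeR adjusted p = 0.547). Over all libraries, the slopes of miR-181b-5p and miR-181c-5p were within 0.01 of 0. Scaled by the library total without TMM, miR-181a-5p fell by 0.13 per 10 libraries (edgeR adjusted p = 0.0122; not fitted on this scale within the sets), a fit in which 102 of 548 miRNAs (18.6%) had a trend and 78 (14.2%) fell.

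Among 13 miRNAs linked to mitochondria or energy metabolism in the heart, 12 had counts, and miR-762 had 0 of 1142199 counts. Most were far more abundant than the miR-181 members, from 202280 counts of the muscle miRNA miR-1a-3p and 9809 of miR-27b-3p down to 730 of miR-195a-5p and 677 of miR-378a-5p. miR-338-3p (281 counts), miR-92a-3p (156) and miR-210-3p (63), the last a miRNA induced by low oxygen, were nearest to the members. Of the 11 tested, 9 varied between libraries (background 85.6%), with a median chi-square per degree of freedom of 6.80. Those that did not pass were miR-338-3p (0.988, adjusted p = 0.522) and miR-195a-5p (1.24, adjusted p = 0.0779). With a count close to that of miR-181b-5p, miR-92a-3p varied to a like degree (2.47, CV 70.8%) and also stood higher in set B, at 282 against 82.8 pooled CPM. In the trend fit without a filter, 5 of the 12 rose and 1 fell with library number (background 18.1% in either direction over 548 miRNAs, most of them with few counts, but 84.3% over the 51 abundant miRNAs that passed the filter).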

How the data were processed

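Total RNA of 85 hearts was extracted with a miRNeasy kit, made into libraries with a QIAseq miRNA kit and sequenced with 50-cycle reads. Per the labels and the study's methods, the authors mapped reads with HISAT2 2.0.6 to mm10 and counted them with HTSeq 0.13.5. The counts deposited by the authors are raw whole numbers, 1 per library for each mature miRNA. Annotation, trimming, strand setting, treatment of reads with several matches and use of molecular identifiers are not given in the sources used here. If strand was not used, a miRNA and one on the opposite strand, such as miR-1b-5p beside miR-1a-3p, cannot be told apart, which bears on the library totals.

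All libraries formed 1 group. Levels are counts and CPM of the library total. For the chi-square test and the set ratios, TMM library sizes were computed over all 548 miRNAs with a count. Sizes computed on the 51 miRNAs that passed filterByExpr differed (9139 against 13744 for library 3, which had 8946 counts) and were not used there. The chi-square test covered miRNAs with at least 85 counts, with Benjamini-Hochberg adjustment (threshold 0.05). The negative binomial CV was added after seeing the data. Trends were fitted in edgeR 4.0.16 (R 4.3.3; TMM, filterByExpr with a minimum count of 10) and DESeq2 1.42.0. Sets A and B came from 2-means clustering of the first principal component of log2 CPM (prior count 2). Intervals are 95% Wilson or profile-likelihood intervals, and floors are 3 counts. Compared in 3570 pairs to look for repeats, libraries had a chi-square per degree of freedom of at least 1.17 (median 6.23). The study's data listing gives 85 strains for these hearts, but no label ties a library to a strain. Libraries were treated as separate samples. The chi-square p-values measure departure from an equal share under counting noise, technical differences included. The permutation p-values measure differences between members within libraries, and the trend p-values a slope over library number against the spread between libraries. None of them can separate strains, animals and technical differences. Other steps used Python 3.11.15, numpy 2.4.6, scipy 1.17.1, pandas 2.3.3 and matplotlib 3.10.9. The chi-square tests, the profile-likelihood interval and the edgeR trend test were checked on simulated data. The permutation test and the DESeq2 Wald test were not.

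The miRNAs named were the 4 members, the 6 3p rows of the family, the marker miRNAs of each cell type and 13 miRNAs linked to mitochondria. The members, lists and tests were chosen with earlier results of these data known. Alternatives were TMM, DESeq2 size factors and CPM without TMM, a total without the 5 most abundant miRNAs, no minimum or filter, the log2 library total as a covariate, leaving out the smallest library, and each set alone. Planned correlations of the members with other miRNAs were not computed, because no member passed filterByExpr.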

Additional observations from a re-analysis of the deposited data

How the results depend on the processing

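Of 133 alternative values, 95 kept their direction and their side of the threshold or, by a coarse measure, their size. The 95 include the mean levels of miR-181a-5p in set A (237 CPM) and set B (462 CPM), against 308 CPM over all libraries. They also include those of miR-181b-5p (100.5 and 222 CPM, against 139), so the tally does not show that levels were equal in the sets. The mean level of miR-181a-5p was 632 CPM with the 5 most abundant miRNAs left out of the total, since that total is smaller by construction. Chi-square per degree of freedom of miR-181a-5p lost its call with TMM (1.19), without the 5 miRNAs (1.22), in set A (1.24) and in set B (1.11), where it was 0.978 without library 21. That of miR-181b-5p lost it in set A (1.11), and also in set B once library 18 was left out (1.24). For miR-181c-5p it was 0.898 in set B, 0.773 there without library 56 and 0.885 over all libraries without library 11. For miR-181d-5p it was 1.35 with TMM, 1.06 in set A, 2.11 in set B and 1.24 without library 58. Once no minimum of counts was set, its 1.499 over all libraries had a chi-square adjusted p of 0.00691. That p-value rests on a mean of 0.718 counts per library, below the range in which the test was checked on simulated data, so no call is drawn from it. The count of varying miRNAs was 83 of 146 in set B and 198 of 548 with no minimum, against 125 of 146. The count with a trend was 43 of 51 (22 rising, 21 falling), 23 of 53 in set A, 17 of 58 in set B and 99 of 548 without a filter, and CPM without TMM gave 15 rising and 29 falling of 51.

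The slope of miR-181a-5p was -0.13 with CPM without TMM. The slope of miR-181b-5p turned positive but not significant with DESeq2 size factors (0.00767), without the smallest library (0.00041), in set B (0.184), with the DESeq2 Wald test (0.00756) and with a covariate for log2 library size (0.0176). That of miR-181c-5p turned negative with CPM without TMM (-0.0446), in set A (-0.123), with the Wald test (-0.00181) and with the covariate (-0.0139). The share of miR-181b-5p in the pair gave 0.944 in set A. In set B, miR-181b-5p took 29.96% and miR-181c-5p 4.22% of the family, and miR-181d-3p had 0 of 21 miR-181d counts, which allows a share of up to 14.3%. The excess of miR-181d-5p over miR-181c-5p did not pass in set A (0.276), in set B (0.407) or without library 58 (0.25). The cause of these changes was not tested. Planned correlations and their 6 alternatives were not run, because no member passed the filter. No paired analysis was possible because all libraries belong to 1 group, so none could be paired between groups (the members were compared within each library). Depth is the main limit: with medians of 0 to 4 counts per library, the level of a member in a single heart is known only within wide bounds.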
